A study of Mus musculus with 12 samples.

Results

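The genes Aqp4, Kcnj10, Kcnj16, Atp1b2, Slc4a4, Gja1 and Gjb6 encode channels, a pump subunit, a transporter and connexins with which astrocytes move water, ions and small solutes. The 7 genes were chosen by name, and each symbol was matched to 1 Ensembl identifier among the 41388 genes counted in every library, of which 40254 have a symbol. RNA was sequenced from 12 libraries of 8 mouse brains, a number in the library title being read as the animal. The series asked what changes when astrocytes lose Bmal1 (official symbol Arntl), which drives transcription in the circadian clock.

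All animals shared a floxed Bmal1 gene (Bmal fl/fl) and the strain entry ALDH1L1-CreERT2 on a C57BL\6 background. Cre-positive animals carry a tamoxifen-inducible recombinase driven by a promoter that is active in astrocytes, so the deletion was aimed at those cells alone. Cre-negative and Cre-positive animals alike were 2 months old when they received tamoxifen by gavage (5 daily doses of 2 mg), and 7 months old when the brains were collected. The astrocyte knockout (aKO) astrocytes came from animals 203, 205, 208, 221 and 222, and the wild type (WT) astrocytes from animals 201, 202 and 265. Flowthrough, the brain cells that the astrocyte beads did not retain, came from aKO animals 203 and 205 and from WT animals 201 and 202. Libraries are named below by genotype and animal number. The astrocyte library of animal 202 is WT in its title and knockout in its genotype entry. It was kept as WT. For the 7 genes, the astrocyte genotype estimates with it as aKO are given as well. Other genotype values are given with it as WT unless stated. All flowthrough titles end in a b that no label explains, and whatever it marks cannot be told apart from the fraction.

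Aqp4 is the water channel of the astrocyte membrane and is densest in the endfeet that wrap brain vessels. Kcnj10 and Kcnj16 encode the inward rectifier potassium channel subunits Kir4.1 and Kir5.1, which assemble with each other and take up potassium released by active neurons. Atp1b2 encodes a beta subunit of the sodium pump, and its product carries ACSA-2, the epitope that the magnetic beads bound. Slc4a4 encodes the sodium bicarbonate cotransporter NBCe1, which regulates astrocyte pH. Gja1 and Gjb6 encode connexin 43 and connexin 30, the connexins that form most gap junctions between astrocytes. Several of these genes are also active outside astrocytes, for example Slc4a4 and Kcnj16 in kidney and Gja1 in heart.

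Promoter windows from RefSeq (GRCm38.p6, 250 bases before to 50 after a start) were held for 5 of the 7 genes, in 9 windows; Aqp4 and Atp1b2 were not matched. The windows below are shown because each belongs to a pair of genes whose products work together, the connexins and the Kir channel subunits, and because the levels of Kcnj16 and Gjb6 moved together over the astrocyte libraries (below). Each is written 5′ to 3′ on the strand of the gene, and capitals mark a match to TGAGTCA (AP-1) or to GGGCGG or its complement (GC box).
Gja1, chr10:56377050-56377349, plus strand: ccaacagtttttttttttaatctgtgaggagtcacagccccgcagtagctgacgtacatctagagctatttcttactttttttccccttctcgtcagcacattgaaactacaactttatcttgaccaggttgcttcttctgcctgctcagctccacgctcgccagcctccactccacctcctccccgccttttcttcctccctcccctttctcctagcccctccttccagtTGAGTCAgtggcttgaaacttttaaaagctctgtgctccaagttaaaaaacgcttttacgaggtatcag
Gjb6, chr14:57133562-57133861, minus strand: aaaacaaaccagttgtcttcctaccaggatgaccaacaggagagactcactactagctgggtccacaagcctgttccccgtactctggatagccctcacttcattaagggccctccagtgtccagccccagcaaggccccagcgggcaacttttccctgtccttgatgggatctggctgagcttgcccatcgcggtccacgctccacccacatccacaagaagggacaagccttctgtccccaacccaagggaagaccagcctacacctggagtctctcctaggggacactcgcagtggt
Kcnj10, chr1:172340960-172341259, plus strand: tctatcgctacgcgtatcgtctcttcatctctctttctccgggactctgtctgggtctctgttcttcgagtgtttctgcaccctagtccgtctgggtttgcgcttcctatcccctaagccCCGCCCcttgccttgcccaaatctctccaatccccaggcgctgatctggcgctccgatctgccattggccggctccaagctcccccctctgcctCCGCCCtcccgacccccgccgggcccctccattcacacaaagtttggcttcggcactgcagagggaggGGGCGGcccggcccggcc
Kcnj16, chr11:110967783-110968082, plus strand, the first of 4 windows of this gene: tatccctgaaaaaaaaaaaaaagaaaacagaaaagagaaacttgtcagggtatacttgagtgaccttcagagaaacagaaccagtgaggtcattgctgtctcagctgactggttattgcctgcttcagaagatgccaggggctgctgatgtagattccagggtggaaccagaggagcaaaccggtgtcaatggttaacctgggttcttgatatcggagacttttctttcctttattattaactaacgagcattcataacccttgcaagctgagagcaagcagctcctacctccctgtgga

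Of the 5 motifs searched on both strands, the clock E-box CACGTG was in 0 of the 9 windows and in 7.15% of 32851 windows of the same length over all genes. AP-1 was in the Gja1 window alone, against 5.2% of all windows. The GC box had 3 matches in the Kcnj10 window and was also in 1 window each of Kcnj16 and Slc4a4, so 3 of 9 windows held it, against 35.7% of all windows. The D-box TTANGTAA, bound by the clock output factors, and the NFI motif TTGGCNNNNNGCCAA were in 0 of 9 windows, against 2.32% and 0.0365% of all windows. None of these motifs contains another. GC content was 47.7% for Gja1, 57.3% for Gjb6, 63.7% for Kcnj10 and 44.3% for the Kcnj16 window shown, with a median of 52.7% over all windows.

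In the coordinates of the deposited tables (GRCm38), Aqp4 lies on chromosome 18 from 15389394 to 15403684 on the minus strand and Kcnj10 on chromosome 1 from 172341210 to 172374085 on the plus strand. Kcnj16 lies on chromosome 11 from 110968033 to 111027968 (plus strand) and Atp1b2 on the same chromosome from 69599736 to 69605942 (minus strand). Slc4a4 lies on chromosome 5 from 88886818 to 89239653 (plus strand), Gja1 on chromosome 10 from 56377300 to 56390419 (plus strand) and Gjb6 on chromosome 14 from 57123303 to 57133611 (minus strand). In GENCODE vM21, Aqp4 alone of the 7 overlaps another gene, the antisense gene AC133525.2, and shares 0 exon bases with it. The exon length in the tables was 3105 bases for Gja1, against 10257 bases in GENCODE vM21, so the level of Gja1 per length depends on the annotation used.

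The total count per library was 21816637 to 62655238 in astrocytes and 33019572 to 53868165 in flowthrough. Mitochondrial genes took 11.1 to 36.5% of counts in astrocytes and 4.81 to 12.9% in flowthrough, and Ttr, a choroid plexus gene, took 1.197 to 17.0% in astrocytes and 8.17 to 32.1% in flowthrough. Arntl stood at 5.05 to 25.01 CPM (counts scaled to the same library total) in aKO astrocytes and 2.13 to 6.80 CPM in WT astrocytes. Any transcripts that lack the floxed exons would still be counted for Arntl, and counts by exon were not available, so this level checks neither the deletion nor the labels. Xist had 2044 and 972 counts in aKO 221 and aKO 222 and at most 46 in any other library; no label gives the sex of the animals. A list of 17 astrocyte markers without the 7 genes summed to 4187 to 17274 CPM in astrocytes and 563 to 6708 CPM in flowthrough, with at most 1 marker at 0 in a library. The 10 microglial markers summed to 315 to 724 CPM in astrocytes and 5864 to 11103 CPM in flowthrough.

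**Figure D1:**
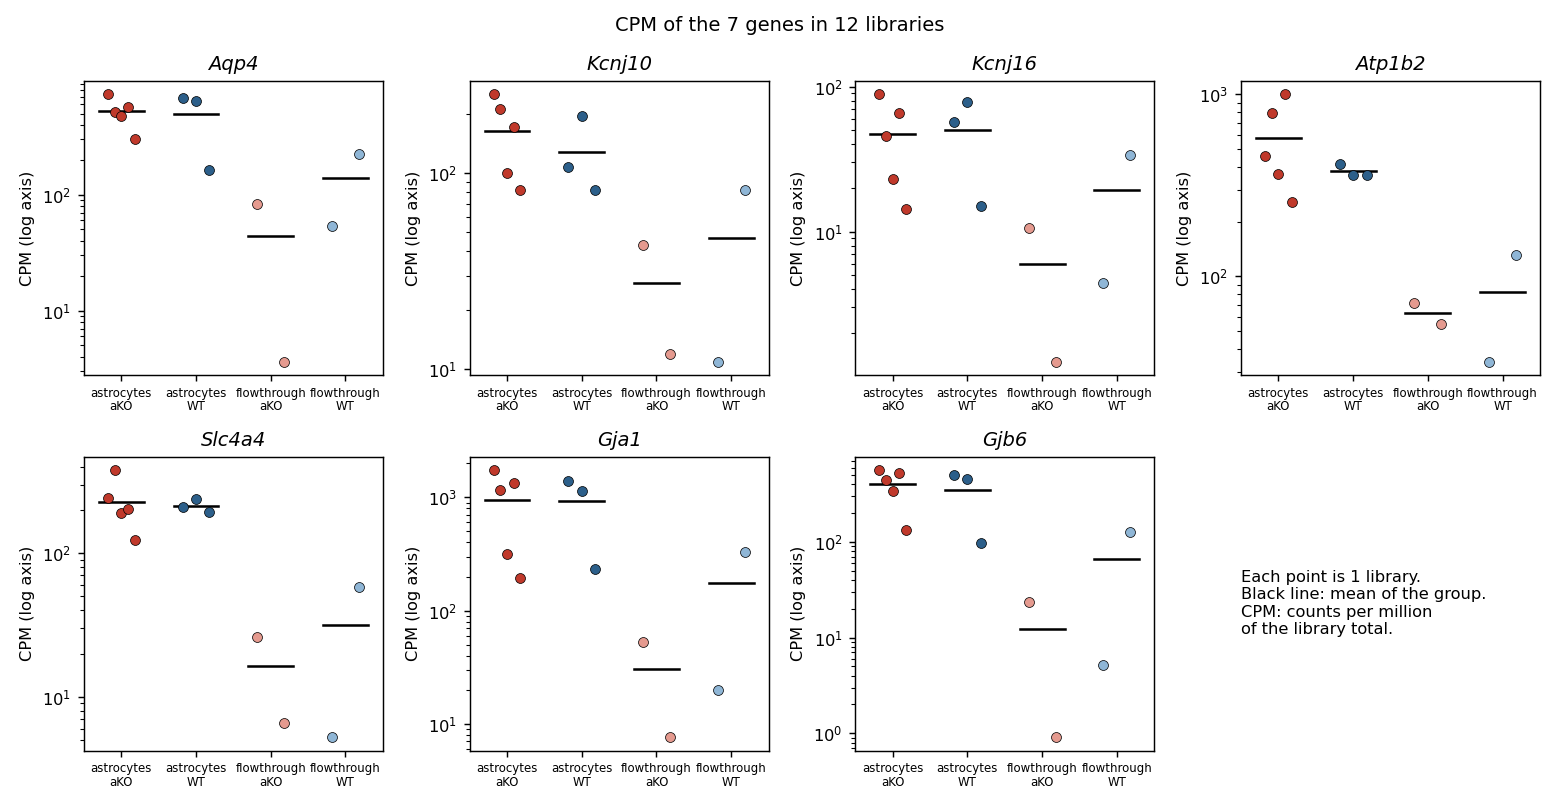
CPM of each gene in the 12 libraries on a log axis, with aKO and WT astrocytes at the left and aKO and WT flowthrough at the right; each point is 1 library and each line a group mean. Gja1 spans 195 to 1740.0 CPM over the 5 aKO astrocyte libraries alone, and aKO 205 flowthrough is the lowest point for Aqp4, Kcnj16, Gja1 and Gjb6.

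Set per length of exon, the 7 genes covered a wide range of levels in isolated astrocytes. Gja1 was highest at 302 ± 194 RPKM (CPM per kilobase of exon; SD, n = 8 libraries), at rank 218 of 31595 genes above 0. Gjb6 followed at 168 ± 78.0 RPKM, Atp1b2 at 122 ± 62.8 RPKM and Aqp4 at 101 ± 38.2 RPKM. Kcnj10 stood at 28.0 ± 12.3 RPKM, Slc4a4 at 20.5 ± 6.74 RPKM and Kcnj16 at 12.3 ± 7.28 RPKM, the last at rank 3262. Between neighbours in this order, the log2 RPKM difference within a library was larger than its SD for Aqp4 over Kcnj10 (1.84 ± 0.53, higher in 8 of 8 libraries), Gja1 over Gjb6 (0.66 ± 0.59, 7 of 8) and Slc4a4 over Kcnj16 (0.97 ± 0.87, 7 of 8). It was not larger than its SD for Gjb6 over Atp1b2 (0.37 ± 0.80, 5 of 8), Atp1b2 over Aqp4 (0.28 ± 0.78, 4 of 8) or Kcnj10 over Slc4a4 (0.38 ± 0.44, 7 of 8).

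In flowthrough (n = 4 libraries), Gja1 was again first by mean, at 33.1 ± 49.2 RPKM, and Slc4a4 was last at 2.22 ± 2.28 RPKM. The SD was as large as or larger than the mean for Aqp4 (17.9 ± 18.6 RPKM), Gja1, Gjb6 (17.1 ± 25.9 RPKM), Kcnj16 (3.20 ± 3.76 RPKM) and Slc4a4. Kcnj10 stood at 6.86 ± 6.25 RPKM and Atp1b2 at 17.8 ± 10.1 RPKM. Kcnj10 over Kcnj16 was the neighbour pair with 1 direction in 4 of 4 libraries, with a log2 difference of 1.50 ± 0.91. The order of the other neighbours in flowthrough was within its spread.

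Isolated astrocytes held more RNA of 6 of the 7 genes than flowthrough did, by 1.83 to 3.53 on the log2 scale. The edgeR quasi-likelihood test over 20637 genes, with Benjamini-Hochberg adjustment over all of them, called these 6 higher at an adjusted p under 0.05, against 8.51% of all genes tested called higher. Atp1b2, whose product carries the epitope that the beads bound, is among the 6, so its call only checks the isolation. All 7 estimates were above 0, against 53.1% of all genes. In a bulk sample, fewer cells of a type and less RNA per cell cannot be told apart. The 2 fractions also differ in their other cells, and CPM values share 1 total.

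The water channel gene Aqp4 had 731, 518, 480.2, 574 and 303 CPM in aKO 203, 205, 208, 221 and 222 astrocytes and 680.5, 641 and 162 CPM in WT 201, 202 and 265 astrocytes. Its level was 83.4 and 3.63 CPM in aKO 203 and 205 flowthrough and 53.3 and 224 CPM in WT 201 and 202 flowthrough. The astrocyte libraries were high except WT 265, which fell below WT 202 flowthrough, so 7 of 8 stood above all flowthrough. Aqp4 was higher in astrocytes with a log2 fold change of 2.52 (SE 0.68, edgeR adjusted p = 0.0171).

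Kcnj10, the pore subunit Kir4.1, had 253, 214, 100.4, 174 and 82.2 CPM in aKO astrocytes (203, 205, 208, 221, 222) and 107, 196 and 82.7 CPM in WT astrocytes (201, 202, 265). Flowthrough had 42.9 and 11.9 CPM in aKO 203 and 205 and 10.9 and 82.7 CPM in WT 201 and 202. The fractions met at the edge, with aKO 222 astrocytes lowest of their fraction and WT 202 flowthrough highest of its own. The log2 fold change of Kcnj10 was 1.83 (SE 0.53, edgeR adjusted p = 0.0250), the smallest of the 6 genes called. Kcnj16, whose subunit Kir5.1 forms its channels with Kir4.1, had 88.3, 46.0, 23.1, 65.5 and 14.4 CPM in aKO astrocytes and 57.2, 77.7 and 14.9 CPM in WT astrocytes, in the same order of animals. It had 10.6 and 1.27 CPM in aKO flowthrough and 4.43 and 34.01 CPM in WT flowthrough. Only 5 of 8 astrocyte libraries stood above WT 202 flowthrough, and the log2 fold change of 1.99 (SE 0.66) missed the threshold (edgeR adjusted p = 0.0504).

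Atp1b2 had 458, 791, 365, 999.98 and 257 CPM in aKO astrocytes and 413, 359 and 359.6 CPM in WT astrocytes. Flowthrough had 71.4 and 54.6 CPM in aKO brains and 34.05 and 130.2 CPM in WT brains. All 8 astrocyte libraries stood above all flowthrough libraries, with a log2 fold change of 2.45 (SE 0.45, edgeR adjusted p = 0.00135). Since the product of Atp1b2 carries the epitope used to isolate the cells, this difference checks the isolation and is no finding. Slc4a4, the bicarbonate cotransporter gene, had 241, 378, 189, 204 and 123 CPM in aKO astrocytes and 209.9, 239 and 194 CPM in WT astrocytes. It had 26.3 and 6.602 CPM in aKO flowthrough and 5.24 and 58.1 CPM in WT flowthrough. Slc4a4 was the other gene whose fractions did not overlap, with a log2 fold change of 3.07 (SE 0.57) and the smallest adjusted p of the 7 genes (edgeR, 0.00133). Fractions that do not overlap, with astrocytes higher, were thus found for 2 of 7 genes and for 6.34% of all genes tested. Of the 2, Atp1b2 counts only as a check of the isolation.

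The connexin genes had the largest fold changes of the 7. Gja1 (connexin 43) had 1740.0, 1149, 316, 1339.8 and 195 CPM in aKO astrocytes and 1402, 1129 and 234 CPM in WT astrocytes. Its flowthrough levels were 53.2 and 7.63 CPM in aKO brains and 20.0 and 330.4 CPM in WT brains. Gja1 was low in aKO 208, aKO 222 and WT 265 astrocytes, all 3 below WT 202 flowthrough, and was higher in astrocytes with a log2 fold change of 3.45 (SE 0.84, edgeR adjusted p = 0.00993). Gjb6 (connexin 30) had 564, 441, 339.8, 520.1 and 133 CPM in aKO astrocytes and 496, 459 and 97.7 CPM in WT astrocytes. It had 23.4 and 0.909 CPM in aKO flowthrough, the lower from 30 counts, and 5.19 and 126 CPM in WT flowthrough. WT 265 astrocytes alone lay below WT 202 flowthrough, and the log2 fold change was 3.53 (SE 0.88, edgeR adjusted p = 0.0113).

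**Figure D2:**
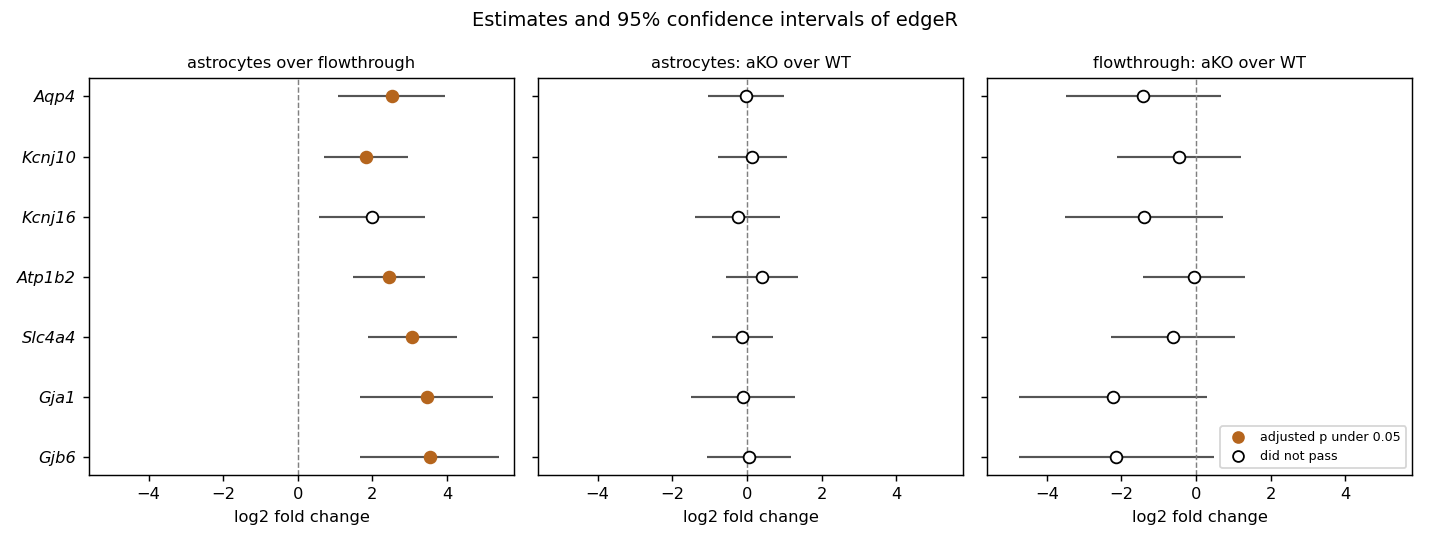
Log2 fold changes with 95% confidence intervals from edgeR, for astrocytes over flowthrough (left) and for aKO over WT in astrocytes (middle) and in flowthrough (right); filled points have an adjusted p under 0.05. All 7 intervals of the fraction comparison lie above 0, 6 with a filled point, and all intervals of both genotype comparisons include 0.

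In the 4 brains that gave both fractions, each of the 7 genes was higher in the astrocyte library than in its own flowthrough. The astrocyte over flowthrough ratio of CPM was 24.1 in aKO 203, 485 in aKO 205, 95.5 in WT 201 and 3.64 in WT 202 for Gjb6. For Gja1 it was 32.7, 151, 70.1 and 3.42 in the same order, and for Slc4a4 9.16, 57.3, 40.1 and 4.11. Aqp4 had ratios of 8.76, 143, 12.8 and 2.86, and Kcnj16 of 8.30, 36.1, 12.9 and 2.28. Animal 202 had the lowest and animal 205 the highest ratio for all 7 genes. Kcnj10 spanned 2.37 to 17.98 and Atp1b2 2.76 to 14.5, the narrowest ranges. The flowthrough of WT 202 also had the highest summed level of the other astrocyte markers in that fraction (6708 CPM, against 2277 in aKO 203, 563 in aKO 205 and 1078 in WT 201), and the part of these markers in the ratios was not tested.

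**Figure D3:**
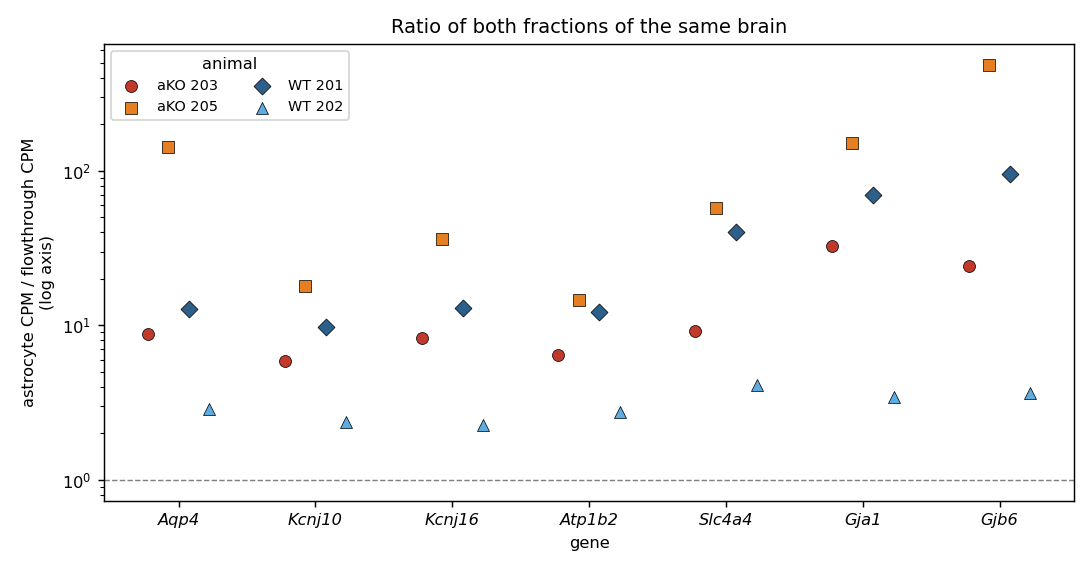
Ratio of CPM in astrocytes to CPM in flowthrough of the same brain, on a log axis, for the 7 genes; each point is 1 of 4 animals, and the dashed line marks a ratio of 1. The points of WT 202 lie lowest for each gene (2.28 to 4.11) and those of aKO 205 highest (14.5 to 485).

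With the animal as a block in the 4 brains with both fractions, edgeR called all 7 genes higher in astrocytes, Kcnj16 with a log2 fold change of 2.91 and an adjusted p of 0.00103, and called 5951 genes in either direction, against 3515 (17%) over all 12 libraries with no block. Without the block, the same 8 libraries gave 3562 calls, and Kcnj16 had an adjusted p of 0.0422. The count of calls among the 7 genes was 4 to 7 over 24 other settings, in which 1691 to 5951 of all genes were called in either direction. The share of all genes called higher was computed for the main fit alone, so the counts from other settings only describe them. Without WT 201 flowthrough, the edgeR adjusted p was 0.0922 for Aqp4 and 0.111 for Kcnj10. Without aKO 205 flowthrough it was 0.109 for Kcnj10 and 0.0635 for Gja1, and without WT 202 astrocytes it was 0.0615 for Kcnj10. Atp1b2, Slc4a4 and Gjb6 passed in all 24 settings. Estimates were larger without WT 202 flowthrough, at 4.93 for Gja1, 5.27 for Gjb6, 4.28 for Slc4a4 and 2.80 for Kcnj10, and without aKO 203 flowthrough, at 4.22 for Aqp4 and 3.02 for Kcnj16 (adjusted p = 0.0229).

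Genes of other cell types differed between the fractions as well. The 17 other astrocyte markers were all above 0 in log2 fold change, with 9 called higher, and 11 of 14 oligodendrocyte markers and 4 of 10 neuron markers were called higher. Oligodendrocyte markers summed to 3796 to 23426 CPM in astrocyte libraries and 959 to 6716 CPM in flowthrough, and none of them was at 0. All 10 microglial, 8 leukocyte and 5 erythroid markers were called lower. The part of these cells in the fold changes of the 7 genes was not tested. Set against the summed level of the 17 other astrocyte markers, Slc4a4 was 1.38 to 4.62% of that sum in astrocytes and 0.486 to 1.17% in flowthrough. Gjb6 was 2.31 to 5.13% in astrocytes and 0.161 to 1.88% in flowthrough. On this scale the fractions of both genes did not overlap, whereas those of Gjb6 overlapped in CPM. The share of all genes without overlap on this scale was not computed, so this only describes these libraries. Kcnj10 was 1.11 to 2.33% in astrocytes and 1.01 to 2.11% in flowthrough, and Kcnj16 was 0.249 to 0.645% in astrocytes and 0.226 to 0.507% in flowthrough, with ranges that overlapped almost whole. Aqp4 (3.71 to 7.04% in astrocytes, 0.645 to 4.95% in flowthrough), Gja1 (3.39 to 14.5%, 1.35 to 4.92%) and Atp1b2 (2.08 to 8.60%, 1.94 to 9.69%) overlapped too.

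The comparison of aKO with WT astrocytes asked whether loss of Bmal1 in these cells alters their RNA. None of the 7 genes passed the test, and each had overlapping groups in the values given above. Over 18950 genes, edgeR called 5 (0.0264%), and 299 genes (1.58%) had an unadjusted p under 0.05, none of them among the 7. Groups that did not overlap were found for 1.07% of genes with aKO higher and 0.343% with aKO lower, and for 0 of the 7 genes. The estimates of the 7 genes ran from -0.25 to 0.41 on the log2 scale, with 3 of 7 above 0, against 53% of all genes, and a median of -0.03, against 0.02 over all genes.

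Aqp4 averaged 521 ± 155 CPM in aKO astrocytes and 494 ± 289 CPM in WT astrocytes (SD, n = 5 and 3), with an edgeR log2 fold change of -0.03 (95% interval -1.05 to 0.99). Kcnj10 averaged 165 ± 73.0 CPM in aKO astrocytes and 129 ± 59.6 CPM in WT astrocytes, with 0.15 (-0.79 to 1.08). Kcnj16 averaged 47.4 ± 30.4 CPM in aKO astrocytes and 49.9 ± 32.0 CPM in WT astrocytes, with -0.25 (-1.38 to 0.89). The potassium channel subunits thus had estimates of opposite sign, and the interval of each spanned both signs. Atp1b2 had the largest estimate, 0.41 (-0.57 to 1.38), at 574 ± 311 CPM in aKO astrocytes and 377 ± 30.9 CPM in WT astrocytes. The SD of its groups differed more than that of any other of the 7 genes, without a test, since the 3 WT libraries lay within 359 to 413 CPM and the 5 aKO libraries within 257 to 999.98 CPM. Slc4a4 averaged 227 ± 94.7 CPM in aKO astrocytes and 214 ± 22.8 CPM in WT astrocytes, with -0.13 (-0.94 to 0.69). This was the narrowest interval of the 7. Gja1 averaged 948 ± 669 CPM in aKO astrocytes and 922 ± 611 CPM in WT astrocytes, with -0.11 (-1.50 to 1.29), the widest interval. Gjb6 averaged 399.6 ± 172 CPM in aKO astrocytes and 351 ± 220.0 CPM in WT astrocytes, with 0.06 (-1.06 to 1.17).

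The adjusted p of edgeR was 0.9997 for each of the 7 genes, and no p under the threshold arose in any of 20 other settings. With library 202 counted as aKO, as its genotype entry has it, all 7 estimates were above 0 and none passed. They were 0.44 for Aqp4, 0.78 for Kcnj10, 0.60 for Kcnj16, 0.37 for Atp1b2, 0.09 for Slc4a4, 0.31 for Gja1 and 0.53 for Gjb6. Oligodendrocyte markers moved in the same comparison, 13 of 14 above 0 with a median log2 fold change of 0.78 and none called, at 3841 to 23426 CPM in aKO astrocytes and 3796 to 12856 CPM in WT astrocytes. With that sum as a covariate, the estimates were -0.79 for Gja1, -0.73 for Kcnj16, -0.32 for Gjb6, -0.22 for Slc4a4, -0.19 for Aqp4, -0.09 for Kcnj10 and 0.13 for Atp1b2, and none passed.

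The ratio of paired genes within a library does not depend on how libraries are scaled. Gjb6 had 0.324, 0.384, 1.08, 0.388 and 0.682 counts for each Gja1 count in aKO 203, 205, 208, 221 and 222 astrocytes, against 0.354, 0.406 and 0.418 in WT 201, 202 and 265 astrocytes. The aKO 208 library alone had more connexin 30 than connexin 43 counts, and aKO 222 was next, while the other 6 libraries lay close together. The mean log2 ratio was -0.96 ± 0.72 in aKO astrocytes and -1.35 ± 0.13 in WT astrocytes (difference 0.39, two-sided exact permutation p = 0.482 of 56 splits). The ratio in flowthrough was 0.440 and 0.119 in aKO brains and 0.260 and 0.381 in WT brains.

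Kcnj16 had 0.349, 0.215, 0.230, 0.378 and 0.175 counts for each Kcnj10 count in aKO astrocytes and 0.532, 0.396 and 0.181 in WT astrocytes, in the same order of animals. WT 201 and WT 202 had the highest ratios and aKO 222 and WT 265 the lowest, so the genotypes overlapped. The mean log2 ratio was -1.96 ± 0.48 in aKO astrocytes and -1.57 ± 0.81 in WT astrocytes (difference -0.39, two-sided exact permutation p = 0.357). Adjusted over both ratios, p was 0.482 for each, and 0.0179 is the smallest p that 5 against 3 libraries can give.

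**Figure D4:**
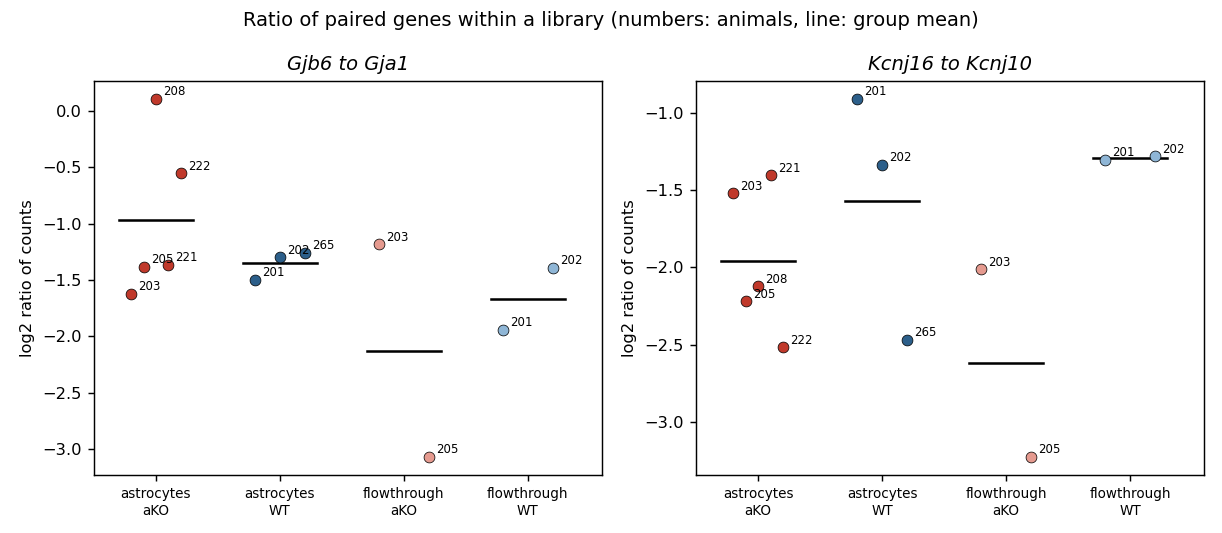
Log2 ratio of counts of Gjb6 to Gja1 (left) and of Kcnj16 to Kcnj10 (right) in each library, by group, with the animal number beside each point and the group mean as a line. In the left panel aKO 208 (0.11) and aKO 222 (-0.55) stand above the other 6 astrocyte libraries.

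The astrocyte libraries differed among themselves far more for some of the 7 genes than for others. After TMM scaling, the highest over the lowest library was 6.67-fold for Gja1, 4.95-fold for Kcnj16, 4.55-fold for Gjb6 and 3.77-fold for Aqp4. It was 2.82-fold for Atp1b2, 2.55-fold for Kcnj10 and 1.86-fold for Slc4a4, so Slc4a4 was the steadiest across animals on this scale. Without TMM scaling, Slc4a4 and Kcnj10 spread alike. Their log2 CPM minus the gene's mean ran from -0.79 to 0.83 for Slc4a4 and from -0.75 to 0.87 for Kcnj10. In CPM without TMM scaling, the aKO 203 library was highest for 5 of the 7 genes and aKO 222 lowest for 5, with WT 265 lowest for the other 2. On that CPM scale, both aKO 222 and WT 265 were among the lowest 3 libraries for all 7 genes, and aKO 208 for 6. These ranks were not taken after TMM scaling. These 3 libraries also had the lowest summed levels of the other astrocyte markers, 7389 CPM in aKO 208, 5764 CPM in aKO 222 and 4187 CPM in WT 265, and the part of this in the spread was not tested.

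**Figure D5:**
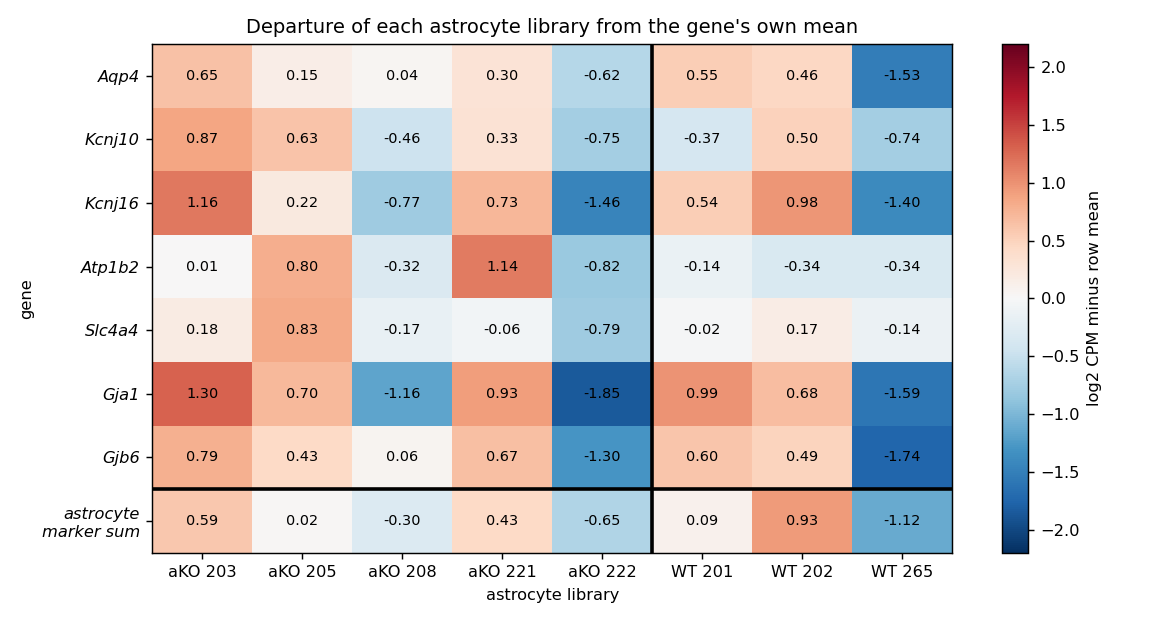
Log2 CPM of each gene in the 8 astrocyte libraries minus the gene's mean over them, with aKO left and WT right of the black line; the bottom row is the summed level of 17 other astrocyte markers. Gja1 ranges from -1.85 in aKO 222 to 1.30 in aKO 203, whereas Slc4a4 stays within -0.79 to 0.83 and Kcnj10 within -0.75 to 0.87.

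Over the 8 astrocyte libraries, the correlation of log2 levels was computed for 21 pairs of genes and is given for 15, of which 3 passed, leaving out the 6 pairs with Gja1, whose libraries fell into a low set of 3 and a high set of 5. The correlation of Aqp4 with Gjb6 was r = 0.93 (Spearman rho = 0.95, exact permutation p adjusted over 21 pairs 0.00174). For this pair r was 0.83 without the 2 libraries farthest from the median of Aqp4. Kcnj16 with Gjb6 had r = 0.89 (rho = 0.95, adjusted exact p = 0.00174), and 0.95 without the 2 libraries farthest from the median of Kcnj16. Aqp4 with Kcnj16 had r = 0.83 (rho = 0.95, adjusted exact p = 0.0156), and again 0.83 without the 2 libraries farthest from the median of Aqp4. Among the 15 pairs given, Aqp4, Kcnj16 and Gjb6 thus varied together across animals of both genotypes. This does not set Gja1 apart from them, since its pairs were left out by a rule chosen after seeing the data. Aqp4 was kept, although its widest gap was 51.3% of its range, against 52.7% for Gja1. That gap in Aqp4 had 1 library below it. Aqp4 with Atp1b2 had r = 0.02 and Aqp4 with Slc4a4 r = 0.03, and the median over the 15 pairs was 0.37. Without aKO 222 and WT 265, 0 of the pairs passed (n = 6, lowest adjusted exact permutation p = 0.0583). There r was 0.90 for Aqp4 with Gjb6, 0.95 for Kcnj16 with Gjb6 and 0.81 for Aqp4 with Kcnj16.

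For each gene, the 3 named genes with the most similar log2 levels over these 8 libraries were found among 8669 genes with a mean log2 CPM of at least 3. Aqp4 was most like Rnmt (r = 0.99), Iqcb1 and Hars, and Kcnj16 was most like Hmgcs1 (r = 0.99), an enzyme of sterol synthesis, Cs and Wars. Gja1 was most like Tab1 (r = 0.99), Elovl5 and Hbs1l, and Gjb6 was most like Blcap (r = 0.99), Pja1 and Scrn3. Kcnj10 was most like Rab11fip4 (r = 0.98), Ahcyl1 and Zcchc24, Atp1b2 most like Rab14 (r = 0.97), Pafah1b2 and Smim14, and Slc4a4 most like Ubxn2a (r = 0.99), Cds2 and Adcyap1r1. With 8 libraries and 8669 genes searched, values this high are a description of these libraries and carry no test.

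In flowthrough, aKO against WT brains (2 libraries each), the estimates of all 7 genes were below 0 and none passed; 53.2% of all genes were above 0. They were -2.22 (SE 1.19) for Gja1, -2.14 (SE 1.23) for Gjb6, -1.41 (SE 0.98) for Aqp4 and -1.39 (SE 0.998) for Kcnj16, with -0.63 for Slc4a4, -0.46 for Kcnj10 and -0.05 for Atp1b2. In each gene WT 202 was the highest of the 4 libraries, so the groups overlapped for all 7, whereas 12.4% of all genes had aKO higher and 20.3% had aKO lower without overlap. Over 20637 genes, edgeR called 0 (0%), as did DESeq2 and limma voom, and the unadjusted p of edgeR was under 0.05 for 817 (3.96%). Of the 17 other astrocyte markers, 16 had estimates below 0 as well, with a median of -0.93. Without WT 202 flowthrough, the estimates were 0.73 for Gja1, 1.34 for Gjb6, 1.79 for Slc4a4, 1.47 for Kcnj10, 1.06 for Atp1b2 and 0.55 for Kcnj16, so these 6 directions rest on that library. For Aqp4 it was -0.18 without that library. The genotype entry of the astrocyte library of animal 202 conflicts with its title (above), and no fit took its flowthrough as aKO.

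The genotype effect in astrocytes minus that in flowthrough had estimates above 0 for the 7 genes and for 49% of all genes, from 0.46 for Atp1b2 to 2.17 for Gjb6 (SE 1.50). None passed (edgeR adjusted p 0.956 or above). Without WT 202 flowthrough, 6 of the 7 estimates were below 0, at -1.91 for Slc4a4, -1.33 for Kcnj10, -1.31 for Gjb6, -0.87 for Gja1, -0.82 for Kcnj16 and -0.65 for Atp1b2, with 0.13 for Aqp4, so these 6 directions rest on that library as well. The doubt over the genotype of animal 202 holds for this comparison too. Of 20637 genes, edgeR called 0 (0%), DESeq2 and limma voom called 0, and 499 (2.42%) had an unadjusted p under 0.05.

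Around the 7 genes, 77 further genes of water, ion and gap junction handling were listed by function, of which 74 were tested between the fractions. Of these, 21 were higher (8.51% of all genes were) and 2 lower (8.52% of all genes were) in astrocytes, with a median log2 fold change of 0.78, against 0.07 over all genes tested. None of the 72 tested between aKO and WT astrocytes passed, with a median of 0.05.

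Of 7 other aquaporins tested between the fractions, 2 were higher in astrocytes and 0 lower. Aqp9, an aquaglyceroporin, averaged 6.44 ± 2.67 CPM in astrocytes and 1.45 ± 0.767 CPM in flowthrough (edgeR log2 fold change 1.83, adjusted p = 0.00609). Aqp6 was at 0.745 ± 0.323 CPM in astrocytes and 0.120 ± 0.135 CPM in flowthrough, near the floor of detection. Aqp11 had 0.73 and did not pass (adjusted p = 0.147).

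Of 15 genes that anchor Aqp4 or belong to the endfoot complex, 4 were higher and 0 lower in astrocytes. Dmd, whose dystrophin isoforms tie the Aqp4 complex to the cytoskeleton, averaged 66.3 ± 29.3 CPM in astrocytes and 10.7 ± 5.32 CPM in flowthrough (log2 fold change 2.45, adjusted p = 0.000199). Hepacam, an adhesion protein that binds connexin 43 and Mlc1, averaged 87.5 ± 50.2 CPM in astrocytes and 13.1 ± 7.38 CPM in flowthrough (2.44, adjusted p = 0.000568). Gpr37l1, a glial receptor, averaged 346 ± 160.1 CPM in astrocytes and 40.7 ± 40.7 CPM in flowthrough (2.95, adjusted p = 0.00300), and Dtna (1.94) was the fourth.

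Among 13 other glial potassium channels, 6 were higher and 1 lower in astrocytes. Kcnn2, a calcium-activated channel, averaged 22.05 ± 9.04 CPM in astrocytes and 2.40 ± 1.67 CPM in flowthrough (3.01, adjusted p = 5.46e-05). Kcnma1, the large-conductance calcium-activated channel, averaged 20.0 ± 6.04 CPM in astrocytes and 4.82 ± 3.02 CPM in flowthrough (1.87, adjusted p = 0.00939). Kcnj2 was the gene that was lower, at 1.99 ± 1.02 CPM in astrocytes and 3.99 ± 0.281 CPM in flowthrough (-1.41, adjusted p = 0.0166). Kcnn2, Kcnma1 and Clcn2 share exon bases with an overlapping gene on the other strand, so their counts are uncertain.

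Of 10 other sodium pump genes, 2 were higher and 0 lower. Atp1a4, an alpha subunit known from testis, was at 0.665 ± 0.461 CPM in astrocytes and 0.117 ± 0.102 CPM in flowthrough. Atp1b1, the other main beta subunit of brain, had -0.03 and did not pass (adjusted p = 0.965), nor did Fxyd5 (-1.31, adjusted p = 0.0601).

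Among 19 other bicarbonate, proton and chloride transport genes, 4 were higher and 0 lower. Car8, a carbonic anhydrase relative, averaged 41.4 ± 33.3 CPM in astrocytes and 4.63 ± 6.405 CPM in flowthrough (3.23, adjusted p = 0.00663). Slc4a3, an anion exchanger, averaged 19.8 ± 5.61 CPM in astrocytes and 5.83 ± 1.56 CPM in flowthrough (1.51, adjusted p = 0.00370), and Clcn2, a chloride channel, averaged 8.05 ± 4.42 CPM in astrocytes and 2.24 ± 0.537 CPM in flowthrough (1.51, adjusted p = 0.00899). Slc4a8 (0.83, adjusted p = 0.0495) was the fourth.

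Of 10 other connexins and pannexins tested, 3 were higher and 1 lower. Gjc3 and Gjb1, connexins of oligodendrocytes, averaged 81.1 ± 26.9 and 58.7 ± 37.3 CPM in astrocytes and 13.1 ± 9.35 and 9.27 ± 9.33 CPM in flowthrough (2.32, adjusted p = 0.00149, and 2.29, adjusted p = 0.0164). Gjb2, a connexin of the meninges, averaged 10.4 ± 5.14 CPM in astrocytes and 1.42 ± 0.781 CPM in flowthrough (2.56, adjusted p = 0.000696). Panx1, a pannexin, was the gene that was lower (-1.58, adjusted p = 0.0320).

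Among those tested between aKO and WT astrocytes, the genes with the smallest p of each group did not pass either. Lrrc8a, a subunit of the volume-regulated anion channel, had the largest estimate, 1.26 (SE 0.74), at 27.1 to 464 CPM in aKO astrocytes and 37.3 to 182 CPM in WT astrocytes, and it shares 2853 exon bases with Gm28035. Car4, a carbonic anhydrase of the cell surface, averaged 69.9 ± 15.3 CPM in aKO astrocytes and 43.3 ± 6.71 CPM in WT astrocytes, with an estimate of 0.61 (SE 0.37). Its groups did not overlap, as was the case for 1.07% of all genes tested with aKO higher. The share among the listed genes was not computed. Kcnj8, a potassium channel subunit of mural cells, had 0.58, and Kcnk10 -0.84. Gjb1 had 0.92 and Gjc3 0.50. With the summed oligodendrocyte markers as a covariate, the estimates were 0.054 for Lrrc8a, 0.16 for Gjb1 and 0.41 for Gjc3. Gjb1 is itself in that sum, so its estimate was adjusted in part for its own level. Fxyd1, the pump regulator phospholemman, had -0.78. Aqp7 had -0.94, Aqp11 0.42, Sntb1 -0.95 and Sgcb 0.42, each with overlapping groups.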

How the data were processed

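RNA-seq of isolated astrocytes and flowthrough was analysed from 12 deposited gene tables. The submitters' processing notes list bcl2fastq, STAR 2.5.1a, Subread, featureCounts 1.4.6-p5 and GRCm38; no source names the annotation release or strand setting. Per the labels, RNA was amplified with Takara Clontech SMARTer v1. The tables hold raw read counts per gene, as the authors deposited them, with the authors' CPM (count scaled to the table total) and RPKM (CPM per kilobase of exon). Both were recomputed from the counts and differed by at most 5.53e-10.

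Genes with no symbol (1134) stayed in the library sizes and tests. Counts were tested with edgeR 4.0.16 (R 4.3.3; TMM scaling, filterByExpr with a minimum count of 10 and total of 15, robust quasi-likelihood fit, 4 groups for all comparisons except aKO against WT in astrocytes, where only the 8 astrocyte libraries entered). A call needed a Benjamini-Hochberg adjusted p under 0.05, with all tested genes in the adjustment. The test was checked on simulated counts. DESeq2 1.42.0, limma 3.58.1 (voom with sample weights), other scalings and filters, omitted libraries and covariates were alternatives. Log2 levels for correlations used a prior count of 2. Ratios and correlations were tested by exact permutation.

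Same-numbered libraries were read as 1 animal, which the title gives. The correlation of their deviations from the group means over 20637 genes was 0.08 for animal 201, 0.42 for 202, 0.17 for 203 and 0.40 for 205.

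The 7 genes, the lists and the tests were chosen with earlier results of these data known. The other genes named are the 3 with the smallest p of each list between the fractions and the 2 with the smallest p between genotypes in astrocytes, the 3 most like each of the 7 genes in level, and, after their values were seen, Dtna, Atp1b1, Slc4a8 and Panx1. Some genes that this rule gives are not reported here. The rule that left pairs with Gja1 out of the correlations was chosen after seeing the data. Depth limits the precision of low genes; counting error is only part of the spread between libraries.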

Additional observations from a re-analysis of the deposited data

Results flagged for a closer look

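The CPM of Gja1 in flowthrough was 330.4 in WT 202 and at most 53.2 in the other 3 libraries, a gap that put WT 202 apart from them. Of 18 groups of values looked at in this way, 1 stood out, and chance gives about 1 in 20 when groups are independent. These groups share libraries, and WT 202 was the highest flowthrough library for each of the 7 genes. For Gjb6 its gap to the next library was 0.820 of the range, against a cutoff of 0.829, so Gja1 is not set apart from the other genes. The values of the 7 genes without WT 202 flowthrough stand beside the genotype comparison in flowthrough.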

How the results depend on the processing

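Between the fractions, the log2 fold changes of the 7 genes were above 0 in all 24 alternatives, and 1691 to 4107 genes were called when 1 library was left out (1691 without WT 201 flowthrough and 2136 without aKO 205 flowthrough). With the replicate block (the animal), 5951 genes were called, against 3562 in the same 8 libraries with no block. Kcnj16 passed in 13 of 24 alternatives. Aqp9, Dmd, Hepacam, Gpr37l1, Kcnn2, Slc4a3, Gjb2 and Gjc3 passed in all 24, Kcnma1, Car8 and Clcn2 in 23, Gjb1 in 21, Kcnj2 in 20, Aqp6 in 12 and Atp1a4 in 10. Leaving out aKO 205 flowthrough ended the calls of Kcnma1, Car8, Kcnj2 and Gjb1, WT 201 flowthrough those of Clcn2, Kcnj2 and Gjb1, and aKO 203 flowthrough that of Gjb1; Aqp6 and Atp1a4, both at low counts, each lost theirs without any of several single libraries.

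For aKO against WT astrocytes, 5 calls became 8 with no count filter, 14 with DESeq2, 0 with library 202 as aKO (803 at an unadjusted p under 0.05), 3 without aKO 222 and WT 265, 1 with all 12 libraries in 1 fit, 8 with the oligodendrocyte covariate, 1 without aKO 208, aKO 222 and WT 265 (chosen after seeing the data), and 0 to 5 with 1 library left out. Atp1b2 stayed above 0 in all 20 alternatives. Estimates that changed sign were Aqp4 with voom (0.18), library 202 as aKO (0.44), without aKO 221 and aKO 222 (0.052) or with the astrocyte marker covariate (0.099), Kcnj16 with library 202 as aKO (0.60), and Slc4a4 with library 202 as aKO (0.091), without aKO 221 and aKO 222 (0.042) or without aKO 208, aKO 222 and WT 265 (0.0091). Gja1 changed sign with library 202 as aKO (0.31) and without aKO 221 and aKO 222 (0.025), Gjb6 without aKO 222 and WT 265 (-0.18), with the oligodendrocyte covariate (-0.32) and without aKO 208, aKO 222 and WT 265 (-0.12), and Kcnj10 with that covariate (-0.094). With 1 library left out, estimates were -0.42 to 0.33 for Aqp4, -0.090 to 0.67 for Kcnj10, -0.66 to 0.37 for Kcnj16, -0.25 to 0.021 for Slc4a4, -0.54 to 0.20 for Gja1, -0.36 to 0.44 for Gjb6 and -1.13 to 0.056 for Fxyd1.

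In flowthrough, 45 genes were called with no count filter and 0 or 1 with 1 library left out. Atp1b2 had 0.18 with voom. With 1 library left out, estimates were -4.86 to -0.18 for Aqp4, -1.57 to 1.47 for Kcnj10, -3.51 to 0.55 for Kcnj16, -0.74 to 1.06 for Atp1b2, -1.85 to 1.79 for Slc4a4, -4.10 to 0.73 for Gja1 and -5.75 to 1.34 for Gjb6. For the difference between the genotype effects, 40 genes were called with no count filter and 1 each without aKO 221 and aKO 222, with the replicate block and in the same 8 libraries with no block. There, leaving out 1 library gave 0.13 to 4.81 for Aqp4, -1.33 to 1.72 for Kcnj10, -0.82 to 3.24 for Kcnj16, -0.65 to 1.17 for Atp1b2, -1.91 to 1.75 for Slc4a4, -0.87 to 3.97 for Gja1 and -1.31 to 5.78 for Gjb6. The cause of these changes was not tested. Correlated pairs numbered 6 with the deposited CPM and a pseudocount of 1, and 0 without aKO 222 and WT 265. The genotype ratios kept their sign in 10 alternatives. With 1 library left out, the difference was -0.83 (without WT 265) to -0.055 (without WT 201) for Kcnj16 to Kcnj10 and 0.12 to 0.55 for Gjb6 to Gja1. In the same 8 libraries, all 7 genes passed between the fractions with the replicate block (5951 of all genes called in either direction) and without it (3562). With 2 to 5 libraries a group, the intervals given above set the limit on what genotype differences could be seen.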
